A study of Mus musculus with 6 samples.

Results

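The 10 genes described here encode the nuclear receptors PPARgamma (Pparg), RXRalpha (Rxra), LXRbeta (Nr1h2) and LXRalpha (Nr1h3), and 6 genes of lipid handling that these receptors are known to control, namely Cd36, Fabp4, Lpl, Abca1, Abcg1 and Plin2. They were taken by symbol from 54532 genes measured, and all 10 reached the mean of 1 FPKM (fragments per kilobase of exon, scaled to the depth of the library) over all libraries that was required for testing, as did 10843 genes in all. By the labels, RNA came from mouse bone marrow-derived macrophages of WT or 4-1BBL KO mice. 4-1BBL is the TNF family ligand encoded by Tnfsf9, and the KO label stands for its loss. All cells of both groups had been immortalised by retroviral infection with v-raf and v-myc and had received IL-4, the cytokine of alternative macrophage activation, at 10 ng/ml for 24 hours. Each group had 3 libraries. The labels do not say whether the 3 libraries are separate cultures or animals, nor whether a group is a single immortalised line, so p-values rest on differences among replicate libraries that may be technical, and genotype and line cannot be told apart. Untreated cells were not analysed here, and each value is a level under IL-4, not a response to it.

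PPARgamma binds fatty acids and their oxidised products, pairs with RXR and turns on genes of fatty acid uptake and storage. The LXRs bind oxysterols, also pair with RXR, and turn on genes that move cholesterol out of the cell. In macrophages the pairs are known for coupling lipid uptake to cholesterol export, and PPARgamma is known as a receptor that IL-4 raises during alternative activation.

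The depth of the libraries was 20.7 to 22.3 M (mega) assigned fragments for WT and 19.1 to 26.4 M for KO-labelled cells. Tnfsf9 itself was at 14.6, 10.4 and 12.05 FPKM in the WT libraries against 10.7, 10.7 and 11.4 FPKM in the KO ones (p = 0.4, exact permutation test, two-sided, which cannot go below 0.1 here). The deleted part of the gene is not given, so its transcript does not check the genotype, and the term KO-labelled is used. The macrophage genes Csf1r (232 and 134 FPKM), Cd68 (426 and 275 FPKM) and Lyz2 (1207 and 484 FPKM) were high in both groups, while Adgre1 (11.8 and 268 FPKM), Aif1 (0.293 and 25.6 FPKM) and Mertk (2 fragments over the WT libraries, 4.24 FPKM in KO-labelled ones) were low or nearly absent in WT. Of 12 macrophage markers 5 rose and 4 fell in KO-labelled cells, where 30.6% of all tested genes rose and 30.2% fell. Aif1 and Mertk, below 1 FPKM in WT, were tested only through the KO-labelled libraries, which fixes their direction. The list summed to 2533 to 2586 FPKM in WT, against 1614 to 1658 FPKM in KO-labelled libraries. The groups also differed in the Y-linked transcript Ddx3y, with 1 fragment over the 3 WT libraries and 10.8 ± 1.13 FPKM (SD, n = 3) in KO-labelled ones. The part that these differences play in the results below was not tested.

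The main comparison asked whether receptors and targets differ between WT and KO-labelled cells. Of the 10 genes, 8 rose in KO-labelled cells, none fell, and Nr1h2 and Abcg1 did not pass an adjusted p of 0.05 (limma, Benjamini-Hochberg over all tested genes). None was lower at an unadjusted p under 0.05 either, nor with voom. Among all tested genes 60.8% passed in either direction, 30.6% as higher and 30.2% as lower. The median log2 fold change was 1.34 over the 10 genes, 1.31 over the 4 receptors, 1.52 over the 6 targets and 0.01 over all tested genes. Of the 10 genes, 7 rose with a ratio of mean FPKM of at least 2, which 9.07% of tested genes did. The WT and KO-labelled libraries did not overlap for 9 of the 10, all of them higher in KO-labelled cells, against 67.4% of tested genes in either direction and 34.1% as higher. None of the 10 has a near-identical copy in the annotation. Pparg and Abca1 were below 1 FPKM in WT. They reached the level for testing only through the KO-labelled libraries, which fixes their direction. The 10 genes were chosen with earlier results of these data known, so these counts describe them and are not independent evidence.

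**Figure D1:**
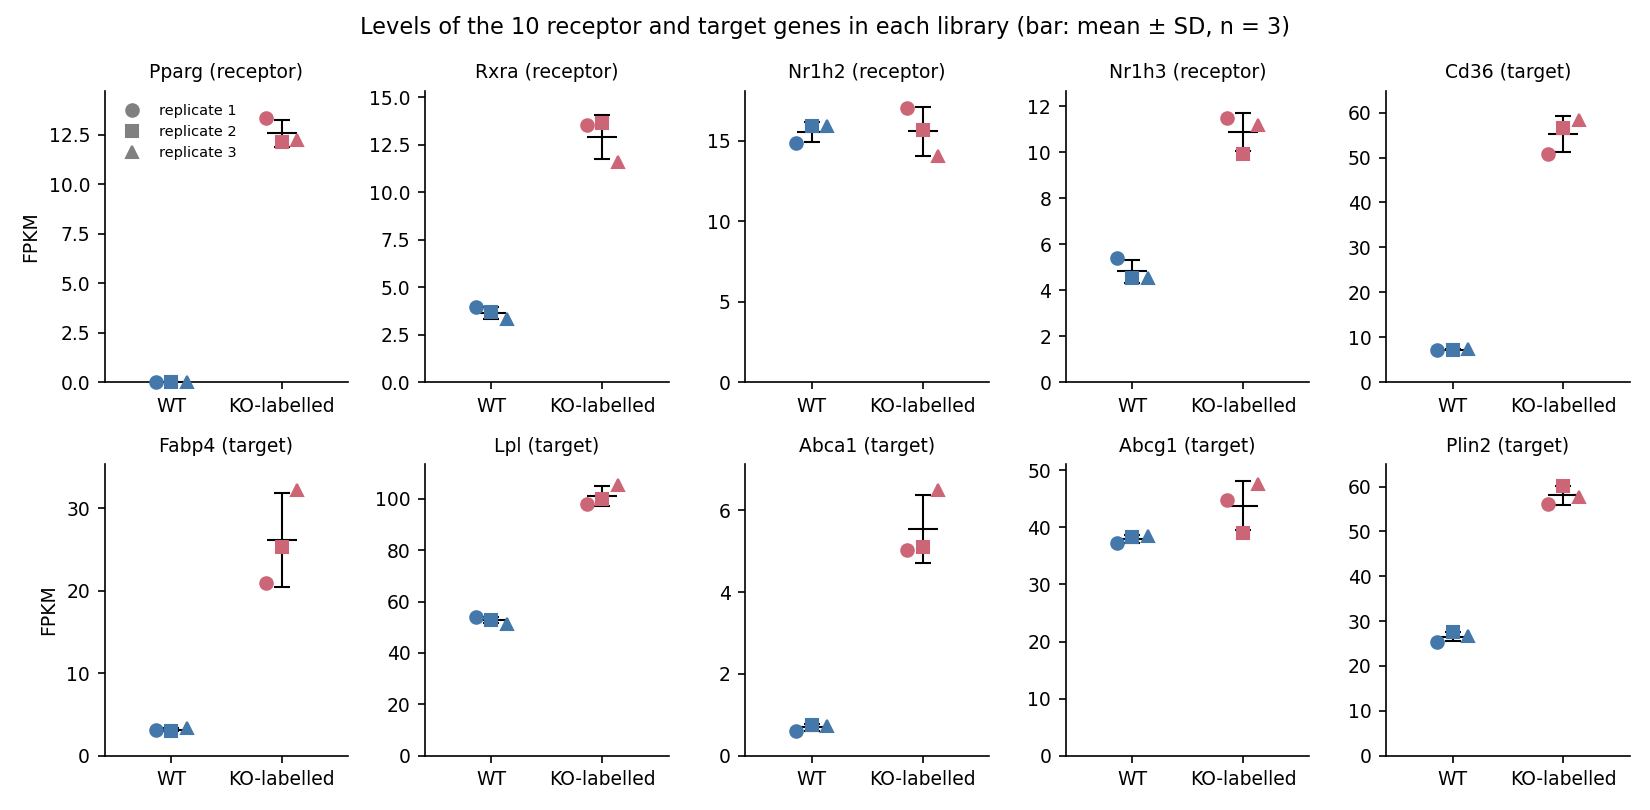
FPKM of each of the 10 genes (1 panel each, y axis from 0) in the 3 WT libraries (blue) and the 3 KO-labelled libraries (red), with symbols for replicates 1 to 3 and a bar for the mean and SD. Pparg is at 0 in all WT libraries, Nr1h2 overlaps between the groups, and in the other 8 panels the groups do not overlap, narrowly so for Abcg1.

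Among the receptors, Pparg differed most. The gene (ENSMUSG00000000440) spans 115360951 to 115490399 on chromosome 6 of mm10, the build of all positions given. No fragment of it was counted in any WT library, while KO replicates 1 to 3 held 13.4, 12.2 and 12.2 FPKM, from 1042, 707 and 691 fragments. The 3 WT libraries were all at 0 and the KO-labelled ones lay close together. Against a floor of 3 fragments per WT library the mean of 12.6 ± 0.681 FPKM (SD, n = 3) was at least 266-fold higher (limma adjusted p = 5.18e-08, Benjamini-Hochberg). Pparg was 1 of 97 genes (0.895% of those tested) that were at 0 in all WT libraries and passed as higher. Such a gene reaches the level for testing only through the KO-labelled libraries, so it can only come out as higher. The p-value above also rests on WT libraries without spread. The floor covers counting error only.

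Rxra encodes 1 of the RXRs, any of which can be the partner of PPARgamma and the LXRs on DNA. It lies on chromosome 2 at 27676440 to 27762957 (ENSMUSG00000015846). WT replicates 1 to 3 held 3.95, 3.68 and 3.33 FPKM, against 13.5, 13.7 and 11.6 FPKM in KO replicates 1 to 3. Every KO-labelled library was far above every WT library. The ratio of means was 3.54. On the log2(FPKM + 1) scale, used throughout unless stated, the difference was 1.58 ± 0.0846 (SE), with an adjusted p of 5.76e-06 (limma, Benjamini-Hochberg).

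Nr1h3, on chromosome 2 at 91184061 to 91202834 (ENSMUSG00000002108), encodes LXRalpha, known from liver and macrophages. It was at 5.38, 4.52 and 4.54 FPKM in WT, against 11.5, 9.94 and 11.2 FPKM in KO-labelled replicates 1 to 3. It rose 2.26-fold, with no overlap between the groups, and its log2 fold change was 1.03 ± 0.0845 (SE, limma adjusted p = 4.88e-05, Benjamini-Hochberg). A small part of its exon sequence is shared with Gm13783 on the same strand. Nr1h2, the LXR found in most tissues, lies on chromosome 7 at 44549616 to 44553951 (ENSMUSG00000060601). It was at 14.8, 15.9 and 15.9 FPKM in WT, against 17.1, 15.7 and 14.02 FPKM in KO-labelled replicates 1 to 3. Its KO-labelled libraries lay on both sides of the WT ones. The 95% interval of its log2 fold change ran from -0.18 to 0.18 (limma adjusted p = 0.998, Benjamini-Hochberg), so a change of more than 0.18 in either direction is outside the interval on this scale. The point estimate was below 0 by less than its SE of 0.0756, and above 0 after rescaling to TPM (in which every library has the same sum, 0.09) and with voom (0.04).

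Putting each receptor beside its relatives showed how the make-up of each family differed. Nr1h3 made up 26.6, 22.2 and 22.2% of the summed LXR level (Nr1h2 + Nr1h3, FPKM) in WT replicates 1 to 3 and 40.3, 38.8 and 44.4% in KO-labelled ones. The LXR sum was 20.4 ± 0.111 FPKM in WT against 26.5 ± 1.83 FPKM in KO-labelled cells (SD, n = 3), and Nr1h2 was the larger part in every library. Rxra made up 14.3, 13.3 and 12.2% of the RXR sum in WT and 33.5, 35.5 and 35.5% in KO-labelled replicates. Its relative Rxrb stood at 23.9 ± 0.209 FPKM in WT and 24.3 ± 2.97 FPKM in the other group, which did not pass (limma adjusted p = 0.894, Benjamini-Hochberg), with a 95% interval of the log2 fold change from -0.19 to 0.22. Rxrg was at 0 in all libraries.

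In the PPAR family the only member above 0 in WT was Ppard, the widely expressed PPARdelta. It fell from 1.94 ± 0.0813 to 0.729 ± 0.156 FPKM (SD, n = 3, limma adjusted p = 0.000734, Benjamini-Hochberg). Ppara was at 0 in WT and had 10 fragments, all in KO replicate 3. Pparg was 96.1, 93.7 and 92.7% of the PPAR sum in KO-labelled replicates 1 to 3. The PPAR sum was 1.94 ± 0.0813 FPKM in WT against 13.4 ± 0.497 FPKM, and these shares and sums were given no test.

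**Figure D2:**
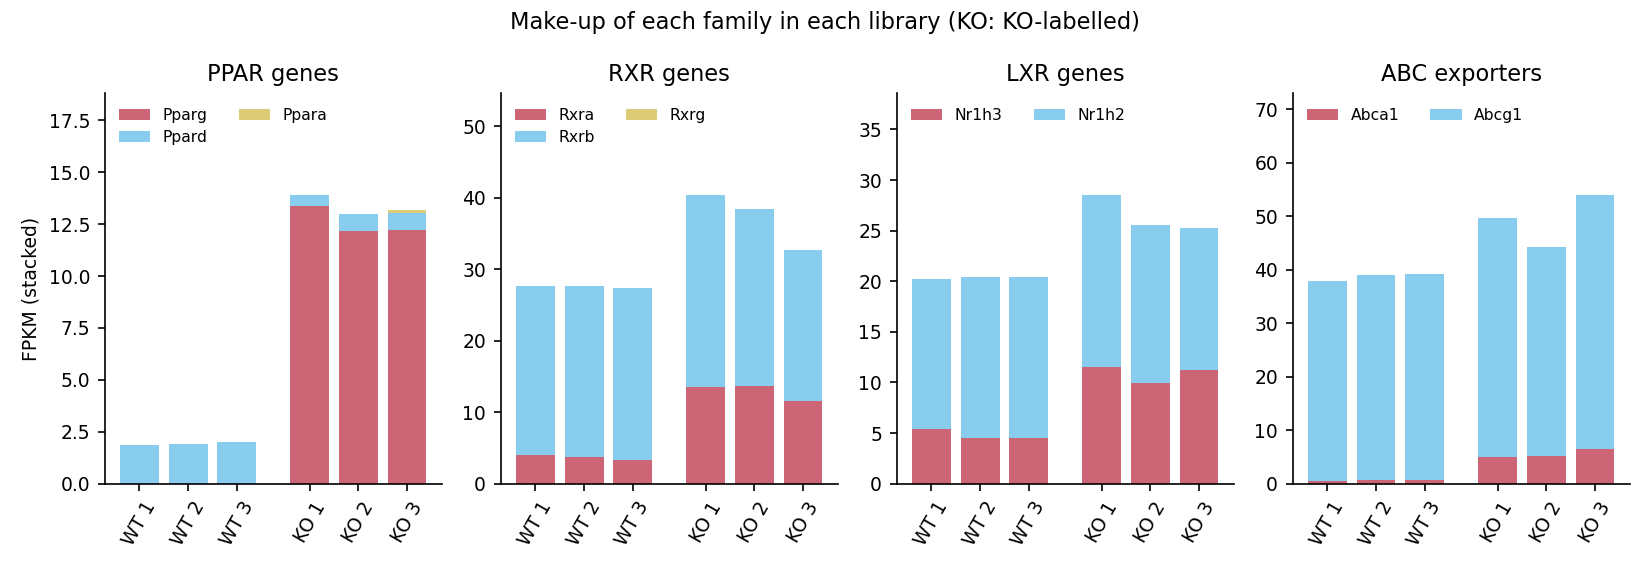
Stacked FPKM per library for PPAR genes, RXR genes, LXR genes and the 2 ABC exporters, with 3 WT bars on the left and 3 KO-labelled bars on the right of each panel. Pparg is absent from the WT bars, Rxrb and Nr1h2 form the larger part of the RXR and LXR sums in all 6 libraries, and Abca1 is a thin part of the exporter sum in WT.

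The fatty acid uptake and carrier genes were the targets with the largest ratios beside Abca1. Cd36, a receptor for fatty acids and oxidised LDL, lies on chromosome 5 at 17781690 to 17888801 (ENSMUSG00000002944). It was at 7.22, 7.13 and 7.36 FPKM in WT, against 50.7, 56.5 and 58.4 FPKM in KO-labelled replicates 1 to 3. Its WT libraries differed by little and the lowest KO-labelled one was far above them. The ratio of means was 7.63 and the log2 fold change 2.77 ± 0.0614 (SE, limma adjusted p = 9.13e-08, Benjamini-Hochberg).

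Fabp4, a fatty acid carrier of the cytoplasm and a classical PPARgamma target of fat cells and macrophages, lies on chromosome 3 at 10204088 to 10208576 (ENSMUSG00000062515). It was at 3.14, 3.00 and 3.35 FPKM in WT, against 20.96, 25.3 and 32.2 FPKM in KO-labelled replicates 1 to 3. It rose 8.28-fold (log2 fold change 2.69 ± 0.142 SE, limma adjusted p = 5.47e-06, Benjamini-Hochberg). The KO-labelled libraries were well apart from each other, with a coefficient of variation of 21.7%, the widest of the 10 genes in that group, against 5.66% in WT. KO replicate 3 held the highest KO-labelled value of 5 of the 6 targets, all but Plin2, and the lowest of Rxra and Nr1h2.

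By mean FPKM, Lpl and Plin2 were the most abundant of the targets that rose, though Plin2 overlapped Cd36 in KO-labelled cells. Lpl encodes the lipase that frees fatty acids from lipoprotein triglyceride and lies on chromosome 8 at 68880491 to 68907448 (ENSMUSG00000015568). It was at 53.9, 53.0 and 51.4 FPKM in WT, against 98.1, 99.8 and 105.5 FPKM in KO-labelled replicates 1 to 3, with no overlap and a ratio of means of 1.92 (log2 fold change 0.92 ± 0.0444 SE, limma adjusted p = 3.4e-06, Benjamini-Hochberg). Plin2, a coat protein of lipid droplets, lies on chromosome 4 at 86648386 to 86670060 (ENSMUSG00000028494). It was at 25.4, 27.5 and 26.7 FPKM in WT, against 56.1, 60.2 and 57.8 FPKM in KO-labelled replicates 1 to 3, a ratio of 2.19 (log2 fold change 1.10 ± 0.0494 SE, limma adjusted p = 2.51e-06, Benjamini-Hochberg). Lpl was the most abundant of the 10 in both groups, while Plin2 was the third in WT and the second in KO-labelled cells.

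Of the 2 cholesterol exporters, both known LXR targets, Abca1 rose and Abcg1 did not pass the test, and the difference between them was not tested. Abca1 hands cholesterol to lipid-poor apolipoprotein A-I and lies on chromosome 4 at 53030787 to 53159895 (ENSMUSG00000015243). It was at 0.592, 0.758 and 0.724 FPKM in WT, against 5.02, 5.10 and 6.49 FPKM in KO-labelled replicates 1 to 3, from 461 fragments in WT and 3700 in KO-labelled libraries. The groups were far apart, with a ratio of means of 8.01, and the log2 fold change was 1.94 ± 0.110 (SE, limma adjusted p = 7.59e-06, Benjamini-Hochberg). Because its WT level was below 1 FPKM the scale mattered, and the log2 fold change was 2.83 with a pseudocount of 0.1 and 3.01 with voom.

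Abcg1 passes cholesterol on to HDL particles and lies on chromosome 17 at 31057675 to 31117988 (ENSMUSG00000024030). It was at 37.2, 38.3 and 38.5 FPKM in WT, against 44.8, 39.1 and 47.6 FPKM in KO-labelled replicates 1 to 3. KO replicate 2 was just above the highest WT library and the other two stood clear of it. The ratio of means was 1.15, the log2 fold change 0.19 with a 95% interval from 0.02 to 0.37, and the adjusted p 0.0529 (limma, Benjamini-Hochberg), which does not pass. It passed under 5 of 14 alternatives, among them rescaling to TPM (adjusted p = 0.0136, log2 fold change 0.29) and leaving out KO replicate 2 (adjusted p = 0.00679, log2 fold change 0.27), and over all 14 alternatives the adjusted p ran from 0.00401 to 0.137. Abca1 was 1.56, 1.94 and 1.84% of the exporters' summed FPKM in WT replicates 1 to 3 and 10.1, 11.5 and 12.01% in KO-labelled ones.

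**Figure D3:**
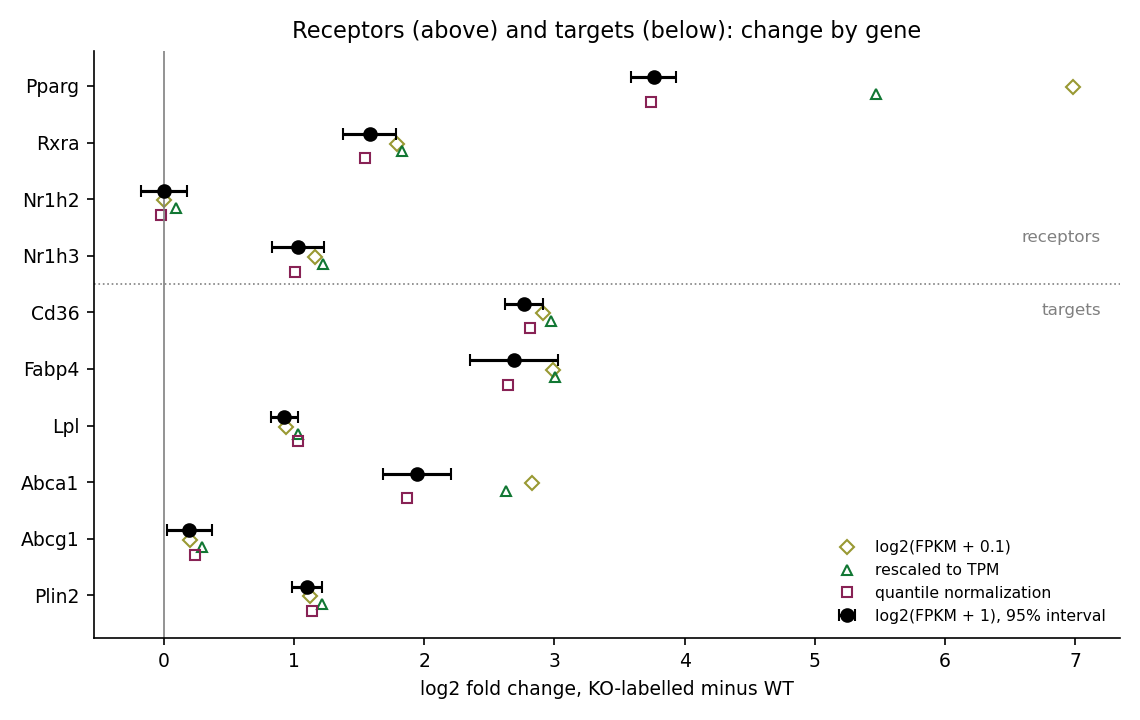
Log2 fold change (x axis, KO-labelled minus WT) of the 4 receptors, above the dotted line, and the 6 targets, below it, with filled circles and 95% intervals on log2(FPKM + 1) and open symbols for a pseudocount of 0.1, rescaling to TPM and quantile normalization. Nr1h2 lies at 0 and Abcg1 at 0.19, and the open symbols of Pparg and Abca1 lie to the right of their circles except under quantile normalization.

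Set side by side, the receptors summed to 24.2, 24.1 and 23.8 FPKM in WT replicates 1 to 3, against 55.5, 51.4 and 49.0 FPKM in KO-labelled ones. The targets summed to 127.5, 129.7 and 128.1 FPKM in WT, against 275.7, 286.04 and 307.9 FPKM. Both sums were higher in every KO-labelled library than in any WT library. Lpl took the largest share of the target sum and Nr1h2 the largest single share of the receptor sum in both groups. Single targets did not follow 1 size of change, with log2 fold changes from 0.19 for Abcg1 to 2.77 for Cd36, and receptors ran from Nr1h2 to Pparg at 3.76. With WT at 0 the value for Pparg is set by the scale, and it ran from 3.72 to 10.7 over the alternatives.

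By level per exon length, the order in WT was Lpl, Abcg1, Plin2, Nr1h2, Cd36, Nr1h3, Rxra, Fabp4, Abca1 and Pparg. The ranges of Rxra and Fabp4 overlapped there, and those of the other neighbours did not. In KO-labelled cells it was Lpl, Plin2, Cd36, Abcg1, Fabp4, Nr1h2, Rxra, Pparg, Nr1h3 and Abca1, where Plin2 overlapped Cd36 and Rxra overlapped Pparg. Cd36, Fabp4, Plin2 and Pparg stood higher in the second order than in the first, and Abcg1, Nr1h2, Nr1h3 and Abca1 stood lower. The order rests on the length that was used. Fabp4 has 4489 bases of annotated exon, since 1 annotated transcript keeps its introns, but its longest coding transcript has 896 bases. Per length of the longest coding transcript Fabp4 would stand the second in KO-labelled cells at 131.1, behind Lpl at 257.5, and the fifth in WT at 15.8. Ratios between the groups are not touched by this choice.

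Sequence upstream of the transcription start was examined for the genes with a promoter window, Nr1h2 included, since PPARgamma-RXR pairs bind a direct repeat of the hexamer AGGTCA with 1 base between (DR1) and LXR-RXR pairs a direct repeat with 4 bases between (DR4). RefSeq promoter windows (GRCm38.p6, 250 bases before to 50 after a start) were matched by symbol for 7 of the 10 genes, 11 windows in all. Fabp4, Lpl and Abcg1 had none. The window of Cd36 has its start at 17835896, inside the annotated gene. Which starts these cells use was not tested. The motifs AGGTCANAGGTCA (DR1) and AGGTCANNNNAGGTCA (DR4) were searched on both strands. Shown here, 5′ to 3′ on the strand of the gene, are the 250 bases before the start of Cd36 (chr5:17835897-17836146, minus strand), Plin2 (chr4:86670060-86670309, minus strand), the downstream start of Rxra (chr2:27709042-27709291, plus strand) and Abca1 (chr4:53159896-53160145, minus strand), since they hold the closest matches, with capitals for a DR1 within 2 mismatches or a DR4 within 3.
Cd36: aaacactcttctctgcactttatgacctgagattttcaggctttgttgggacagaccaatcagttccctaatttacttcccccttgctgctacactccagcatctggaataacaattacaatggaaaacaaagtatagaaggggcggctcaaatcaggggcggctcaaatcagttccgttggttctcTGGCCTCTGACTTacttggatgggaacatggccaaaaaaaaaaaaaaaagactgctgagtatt
Plin2: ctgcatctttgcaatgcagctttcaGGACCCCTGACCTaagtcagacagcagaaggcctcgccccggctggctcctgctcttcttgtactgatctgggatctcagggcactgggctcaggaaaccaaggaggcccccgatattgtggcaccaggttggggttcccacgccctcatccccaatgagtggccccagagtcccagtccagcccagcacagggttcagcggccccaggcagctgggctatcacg
Rxra: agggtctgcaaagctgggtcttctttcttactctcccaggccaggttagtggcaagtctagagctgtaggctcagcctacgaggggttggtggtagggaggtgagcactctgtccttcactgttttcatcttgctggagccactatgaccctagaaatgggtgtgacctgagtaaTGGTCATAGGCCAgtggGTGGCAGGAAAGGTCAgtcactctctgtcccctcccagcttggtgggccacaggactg
Abca1: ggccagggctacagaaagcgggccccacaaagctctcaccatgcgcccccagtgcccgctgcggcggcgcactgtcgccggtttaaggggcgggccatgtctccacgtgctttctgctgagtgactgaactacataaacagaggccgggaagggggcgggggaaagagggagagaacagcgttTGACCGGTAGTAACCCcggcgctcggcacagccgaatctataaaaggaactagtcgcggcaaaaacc

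No member window held an exact DR1 or DR4, which 0.0396% and 0.0152% of all 32851 windows did. A DR1 with 2 mismatches was found in 3 of the 11 windows, and 3.86% of all windows hold one within that limit. With 3 mismatches allowed, a limit added after the windows had been seen, it was again 3 of the 11, against 24.6% of all windows. The matches within 2 mismatches were AAGTCAGAGGCCA before Cd36, at -63 to -51 from the start on the opposite strand, AGGTCAGGGGTCC before Plin2, at -225 to -213 on the opposite strand, and TGGTCATAGGCCA before Rxra, at -75 to -63 on the strand of the gene. The one before Plin2 contains an exact hexamer. None of the 11 windows held a DR4 within 2 mismatches, against 3.02% of all windows. With 3 mismatches 3 of the 11 did, against 21.9% of all windows. The one before Abca1 read GGGTTACTACCGGTCA on the opposite strand at -67 to -52, and the other ones were at Rxra and at the second Pparg start, where it runs across the start and is not printed. The exact hexamer was in 5 of the 11 windows, against 16.3% of all windows. These matches describe letters in a short window and show no binding.

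Genes whose pattern was most like that of Pparg were sought among all tested genes. Over the 6 libraries the highest Pearson r of log2(FPKM + 1) with Pparg was that of Adgrl2 (0.99997), Smad9 (0.99995) and Susd1 (0.99993), each at 0 in all WT libraries. Adgrl2 was at 3.54, 3.33 and 3.26 FPKM in KO-labelled replicates 1 to 3. Of the 10842 other tested genes, 1915 (17.7%) had an r of at least 0.95, so a high r is common among genes that differ between the groups.

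Other genes of the pathway were taken from 6 lists, and changed in both directions, as tested genes did in general (30.6% higher and 30.2% lower). The counts of each list below are to be read beside these shares. Among the genes counted, Ppard, Klf4, Tgm2, Arl4c, Mertk, Pltp and Fabp7 were below 1 FPKM in 1 group. They were tested only through the other group, which fixes their direction. Among related receptors and cofactors 7 of 16 tested genes rose and 3 fell, while 6 did not pass. The median log2 fold change was 0.13. The coactivator acetylase gene Crebbp rose from 2.93 ± 0.159 to 5.46 ± 0.429 FPKM (SD, n = 3, limma adjusted p = 0.000179, Benjamini-Hochberg). Its near-identical copy Gm47551 was at 0.0907 FPKM in WT and 0 in KO-labelled libraries. The corepressor gene Ncor1, at 15.7 ± 0.378 FPKM in WT against 15.9 ± 0.584 FPKM in KO-labelled cells, did not pass (limma adjusted p = 0.78, Benjamini-Hochberg). The coactivator gene Ppargc1b fell, its log2 fold change being -0.80 (limma adjusted p = 0.000398, Benjamini-Hochberg).

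Of other PPAR targets 7 of 10 tested genes rose and 1 fell, while 2 did not pass. The median log2 fold change was 0.38. Klf4, a transcription factor gene, rose 6.67-fold from 0.827 ± 0.239 to 5.51 ± 0.826 FPKM. Whether Klf4 is a PPAR target in these cells was not tested. Tgm2, a transglutaminase gene with 21.8% of its exon length under antisense genes, rose from 0.813 ± 0.168 to 2.03 ± 0.442 FPKM. Angptl4, an inhibitor of lipoprotein lipase, rose from 2.31 ± 0.517 to 3.60 ± 0.319 FPKM (limma adjusted p = 0.015, Benjamini-Hochberg), but without KO replicate 2 its adjusted p was 0.0531 (log2 fold change 0.44), and over 13 alternatives it ran from 0.00452 to 0.0531. Pdk4, a classical PPAR target of muscle, was at 0 in all 6 libraries. Fabp5, the carrier that macrophages hold beside Fabp4, rose from 82.8 ± 2.65 to 153 ± 3.02 FPKM, a ratio of 1.85. Fabp5 has 2 near-identical copies, Gm6166 and Gm14328, whose counts went the other way. As CPM (recovered fragments scaled to depth, without length), Gm6166 was at 128.7 ± 5.70 in WT and 2.90 ± 1.14 in KO-labelled libraries, and Fabp5 with both copies stood at 441.9 ± 11.4 and 549.9 ± 10.8, a ratio of 1.24, so the size of the change in Fabp5 is uncertain.

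Of other LXR targets 6 of 13 tested genes rose and 4 fell, while 3 did not pass. The median log2 fold change was 0.0014. Arl4c, a small GTPase gene, rose from 0.0638 ± 0.0659 to 45.02 ± 2.49 FPKM, a ratio of 706 that rests on 22 fragments in WT. Smpdl3a, a phosphodiesterase gene, rose 8.29-fold from 3.65 ± 0.0869 to 30.2 ± 1.41 FPKM. Whether Smpdl3a is an LXR target in mouse macrophages was not tested. Apoe, the apolipoprotein that accepts exported cholesterol, rose from 1.84 ± 0.669 to 3.60 ± 0.572 FPKM (limma adjusted p = 0.0112, Benjamini-Hochberg), and Lpcat3, a phospholipid remodelling enzyme, rose 1.23-fold, with 10.2% of its exon length under antisense genes. In the other direction Scd1, a fatty acid desaturase gene with a near-identical stretch in Scd2, fell from 41.3 ± 0.755 to 5.91 ± 0.519 FPKM (log2 fold change -2.62). Pltp, the phospholipid transfer protein gene, fell from 3.62 ± 0.0968 to 0.116 ± 0.0938 FPKM (21 fragments), and 19.3% of its exon length lies under an antisense gene. Mylip, which marks the LDL receptor for breakdown, was at 3.98 ± 0.858 and 3.95 ± 0.419 FPKM, and Srebf1, the lipid synthesis regulator, at 38.2 ± 0.420 and 37.5 ± 2.72 FPKM, neither of which passed (limma adjusted p = 0.994 and 0.701, Benjamini-Hochberg). The direction of both depended on the scaling.

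Among lipid uptake receptors and carriers 6 of 12 tested genes rose and 4 fell, while 2 did not pass. The median log2 fold change was 0.18. The scavenger receptor gene Msr1 rose from 6.70 ± 0.127 to 10.4 ± 0.927 FPKM, a smaller ratio (1.55) than that of Cd36. The Fabp4 relatives Fabp7 and Fabp3 both rose, Fabp7 from 0.272 ± 0.111 to 6.27 ± 0.697 FPKM, and Fabp3 from 1.78 ± 0.533 to 10.02 ± 1.48 FPKM, where Fabp3 has a near-identical pseudogene copy and 19.6% of its exon length lies under antisense genes. Cxcl16, a chemokine and scavenger receptor for oxidised lipoprotein, rose 2.74-fold, and 18.3% of its exon length lies under an antisense gene.

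Among lipid droplet and cholesterol ester genes 6 of 18 tested genes rose and 6 fell, close to the shares over all tested genes, while 6 did not pass. The median log2 fold change was 0.13. The triglyceride synthase gene Dgat2 rose 10.3-fold from 1.28 ± 0.418 to 13.2 ± 0.127 FPKM, while its counterpart Dgat1, at 3.73 ± 0.498 FPKM in WT against 3.99 ± 0.199 FPKM in KO-labelled cells, did not pass (limma adjusted p = 0.477, Benjamini-Hochberg). Pnpla2, the first lipase of droplet triglyceride, rose 2.57-fold and Soat1, which esterifies cholesterol, rose 1.76-fold. The lysosomal acid lipase gene Lipa fell 1.73-fold from 159 ± 1.29 to 91.8 ± 4.74 FPKM, and the phosphatidate phosphatase gene Lpin2 fell 2.42-fold. Plin2 made up 76.5, 80.8 and 78.8% of the summed Plin2 and Plin3 level in WT replicates 1 to 3 and 75.7, 79.3 and 78.8% in KO-labelled ones, which overlapped.

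Of the 3 tested genes of oxysterol synthesis and turnover 1 rose and 2 fell. The median log2 fold change was -0.53. The gene that rose was Cyp27a1, a sterol 27-hydroxylase, from 10.1 ± 0.449 to 14.3 ± 2.38 FPKM (limma adjusted p = 0.00998, Benjamini-Hochberg). The exporter gene Abcc1 fell 1.49-fold. The 25-hydroxylase gene Ch25h had no fragment in WT, against 53 fragments and 0.597 ± 0.0564 FPKM in KO-labelled libraries. It was at least 5.92-fold higher, and was below the level for testing.

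**Figure D4:**
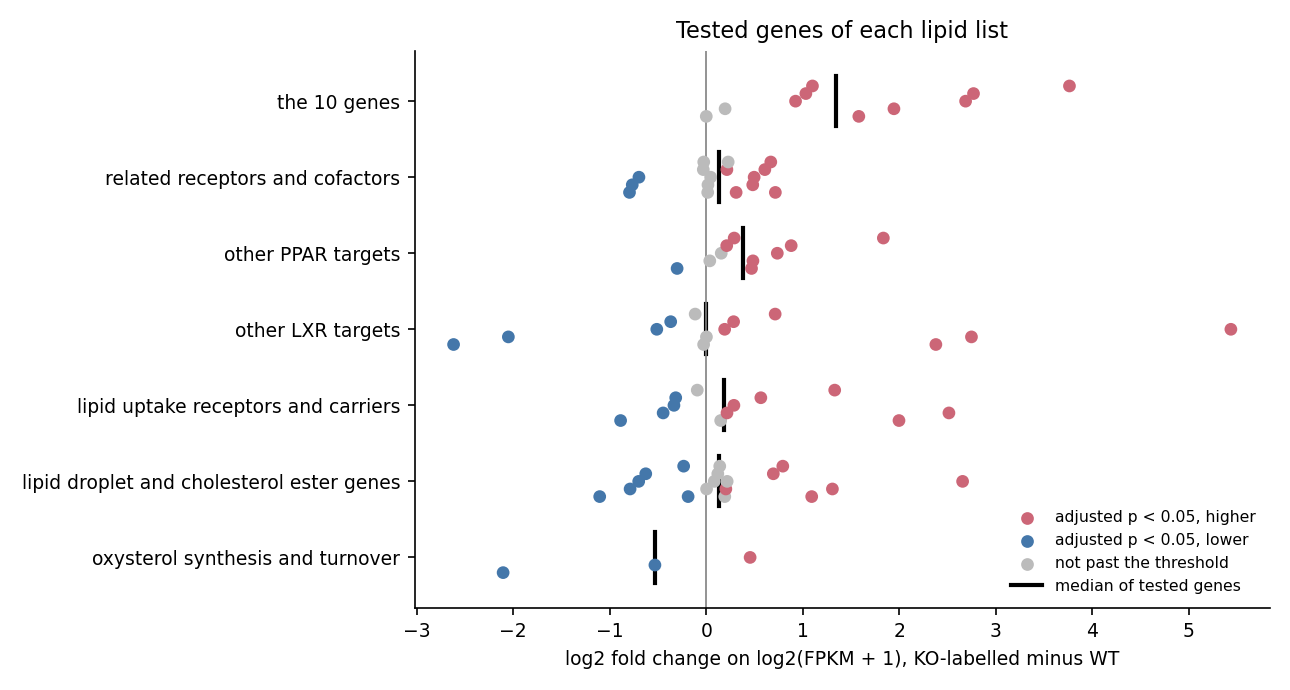
Log2 fold change (x axis, KO-labelled minus WT) of each tested gene in the set of 10 and in 6 lists of related genes, coloured by whether the adjusted p was under 0.05 and in which direction, with a black bar for the median. The median of the 10 genes is 1.34 and those of the 6 lists lie between -0.53 and 0.38.

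Since Pparg, Cd36, Fabp4, Lpl and Plin2 are also fat cell genes, markers of other cells were examined. Of 10 fat cell markers 9 were below 1 FPKM in every library and 5 were at 0 in all, with Adipoq at 0 in WT against 0.0549 ± 0.0951 FPKM in KO-labelled libraries (SD, n = 3). The 10th, Lipe, was at 3.76 ± 0.380 and 4.17 ± 0.402 FPKM. The summed level of the list was 3.55 to 4.20 FPKM in WT, against 3.72 to 4.55 FPKM in KO-labelled libraries. All 8 fibroblast markers were below 1 FPKM in every library. Dendritic cell markers summed to 0.640 to 0.797 FPKM in WT, against 1.98 to 3.35 FPKM in KO-labelled libraries. H2-Ab1 carried the rise, from 0.0846 ± 0.0858 to 2.43 ± 0.677 FPKM. Only H2-Ab1 reached the level for testing, through the KO-labelled libraries, which fixes its direction. By mean FPKM, Zbtb46, Itgax and Xcr1 were lower in KO-labelled libraries, Flt3 was higher with 8 fragments, and the other markers were at 0. Of the osteoclast markers 4 of 5 tested genes fell and 1 rose, against 30.2% and 30.6% of all tested genes. Dcstamp and Mmp9, which fell, were below 1 FPKM in KO-labelled cells, so testing only through WT fixed their direction. The list summed to 147 to 158 FPKM in WT, against 87.2 to 90.7 FPKM in KO-labelled libraries. The part of this difference in the results on lipid genes was not tested. In these bulk libraries fewer cells of a type and less RNA per cell cannot be told apart.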

How the data were processed

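Poly(A) RNA of 6 libraries was sequenced, 3 WT and 3 KO-labelled. The authors deposited FPKM per Ensembl gene, and the submitters' processing notes list featureCounts 1.5.0-p3, HISAT2 2.0.5 and the mm10 build. Which annotation release and strand setting they used, and how reads with several matches were treated, is not given in the sources used here. Per the labels' protocols the library may or may not keep strand. Symbols, positions and exon lengths came from GENCODE M21 on the same build (54495 of 54532 identifiers matched).

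The files hold FPKM and no counts. FPKM times exon length stepped in multiples of 1 fragment, with 97.9 to 98.0% of values up to 200 fragments whole within 0.1, against 20% by chance, and this gave depth and fragments. The bound for a group at 0 takes 3 fragments in each library. No 2 libraries shared a value above 0 at any gene.

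The test was limma's moderated test with a trend (limma 3.58.1, R 4.3.3) of log2(FPKM + 1) between KO and WT. It ran on the 10843 genes whose mean reached 1 FPKM, with Benjamini-Hochberg adjustment over all of them. A gene with a mean below 1 FPKM in 1 group is tested only through the other group, which fixes its direction. This scale understates changes of weak genes, and ratios are of mean FPKM. The fit was tested on simulated data. Alternatives changed the pseudocount, filter, scaling, variance model, block and libraries. Near-identical copies (95% identity over 80% of the shorter transcript, at least 150 bases) were sought with BLAST+ 2.17.0+. The 10 genes and the lists were chosen with earlier results of these data known. Named beside the 10 were Tnfsf9, 19 set genes, the 3 passing genes of each list with the largest log2 fold change in either direction, and the 3 genes most like Pparg. Cell markers, Ddx3y, Rxrg and the copies of Fabp5 are given as checks. A few genes that this rule names are not reported here.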

Additional observations from a re-analysis of the deposited data

How the results depend on the processing

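The 8 genes that rose kept their direction and their call in all 111 fits run for them over 14 alternatives. Abca1 was not tested in 1 of these, since it did not reach a mean of 5 FPKM. With a mean of at least 5 FPKM, 4 other PPAR targets were higher in place of 7 and 1 related receptor or cofactor was lower in place of 3, because fewer genes were tested. Without a filter 3 oxysterol genes were higher in place of 1, because more were tested. The direction of 6 named genes that did not pass turned. Rescaling to TPM gave log2 fold changes of 0.092 for Nr1h2 and 0.065 for Srebf1, voom gave 0.040 and 0.0061, and quantile normalization gave -0.0055 for Rxrb, -0.0045 for Ncor1, -0.041 for Mylip and 0.0071 for Srebf1. Leaving out 1 library gave ranges of -0.064 to 0.069 for Nr1h2, -0.061 to 0.11 for Rxrb, -0.0067 to 0.043 for Ncor1, -0.073 to 0.14 for Mylip, -0.085 to 0.0078 for Srebf1 and -0.0061 to 0.14 for Dgat1. None of these passed, and the cause was not tested. Rescaling to TPM moved the median of all genes to 0.10 and the counts to 3969 higher and 2642 lower, from 3321 and 3273.

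Replicate numbers are shared by the groups, but same-numbered libraries deviated from their group means with correlations of -0.03, 0.05 and -0.03, so the numbers were not taken to pair the samples, and not every library correlated best with its own number. With the replicate number as a block 3119 genes were higher and 3075 lower, and 8 of the 10 genes were higher. Depth leaves Ppara and Ch25h, with 10 and 53 fragments, poorly measured.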
